A study of Mus musculus with 4 samples.

Results

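The 10 genes described here encode proteins associated with T cell anergy, most of which restrain T cell receptor signaling: the ubiquitin ligases *Rnf128* (GRAIL), *Cbl*, *Cblb*, *Itch*, *Nedd4* and *Peli1*, the RING protein *Rc3h1* (Roquin-1), the ligase adaptor *Ndfip1*, and the diacylglycerol kinases *Dgka* and *Dgkz*. They were chosen by name, as the genes whose symbol stands alone on a probe set of the array. All 10 of them were measured, out of 18193 genes in all. Follicular helper CD4+ T (TFH) cells had been sorted from spleen on day 8 of an LCMV Armstrong infection, and 4 Affymetrix mouse arrays were hybridized, 2 from *Rictor*-/- (Rictor-null in the labels) and 2 from WT mice. *Rictor*-/- mice were *Rictor* fl/fl mice that carried a *Cd4*-Cre transgene, so that the deletion was not restricted to TFH cells or to a stage of infection, and WT mice were their *Rictor* fl/fl littermates without Cre. Mice of both sexes had been infected at 6 to 10 weeks of age. Each array came from pooled mice, at least 5 per sample by the series description, or 6 *Rictor*-/- and 4 WT mice per group by the legend of the study. The comparison asks how the transcripts of these genes differed when TFH cells lacked Rictor, the subunit that defines mTOR complex 2 (mTORC2).

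Anergy is a state in which a T cell that has met antigen without enough co-stimulation no longer responds fully to it. Ubiquitin ligases contribute by tagging receptor chains, adaptors and kinases of the T cell receptor pathway for sorting or degradation. RING ligases bring a charged conjugating enzyme to the substrate, whereas HECT ligases take the ubiquitin onto themselves first. Some HECT ligases, Itch among them, need adaptors such as Ndfip1 to be released from an inactive fold. Diacylglycerol kinases act beside the ligases by converting diacylglycerol, the messenger that recruits RasGRP1 and protein kinase C, to phosphatidic acid. In TFH cells Roquin-1 and Itch are known for their part in controlling how many of these cells arise.

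The values were probe set intensities on a linear scale, and every fold change below is a difference of mean log2(intensity + 16), *Rictor*-/- minus WT, with 2 arrays per group. On this scale changes of dim genes come out too small. A gene was read by its brightest probe set, and p-values from limma were adjusted over all 18193 genes with a threshold of 0.05. With 2 arrays per group, many genes that did not pass also showed no overlap of the groups. Lack of overlap is therefore no test here. Array medians lay between 19.98 and 20.4, replicates correlated at 0.998 (Pearson's r across probe sets), and the small number of arrays limits the precision. *Rictor* itself was at 267 and 279 in the *Rictor*-/- arrays and at 334 and 303 in the WT arrays in the brightest of its 5 probe sets (log2 fold change -0.21, adjusted p = 0.0366 from limma). None of the 5 passed when all probe sets were tested together, and the other ones lay between -0.03 and 0.11. No source used here says whether the probe sets lie in the deleted exons, so that they do not check the deletion. All 11 measured T cell and TFH markers lay above the array medians on every array, and 8 of them were lower in *Rictor*-/-, as given with the other markers further on.

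Of the 10 genes, 6 were lower in *Rictor*-/- than in WT TFH cells, namely *Cbl*, *Cblb*, *Rnf128*, *Ndfip1*, *Peli1* and *Dgkz*. One gene, *Nedd4*, was higher, at an intensity near the median of the array, and *Itch*, *Rc3h1* and *Dgka* did not pass the test. Over all genes, 7.19% were called lower and 12.5% higher, and among the 10714 genes whose brightest probe set lay above the median of all probe sets 11.3% and 20.1%. The median log2 fold change was -0.28 over the 10 genes and 0.0068 over all genes. The changes were moderate, and no member that passed as lower fell by as much as 1.5-fold in its brightest probe set. Fewer cells of a kind within the sort and less RNA per cell cannot be told apart in such pooled samples.

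**Figure D1:**
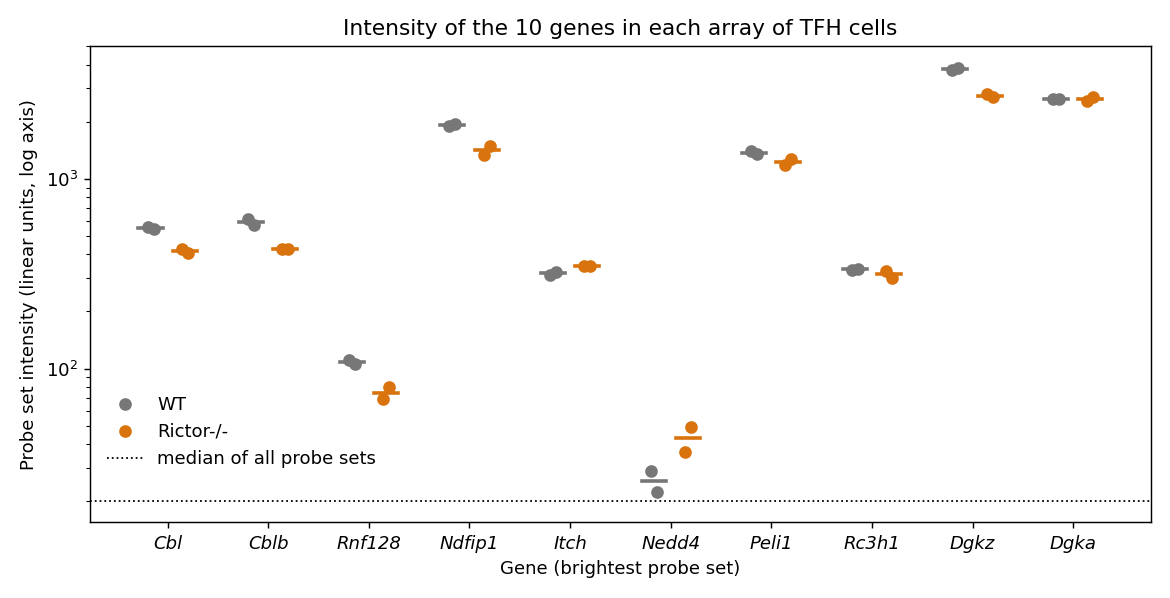
Intensity of the brightest probe set of each gene (y axis, linear units on a log axis) in the 2 WT arrays (grey) and the 2 Rictor-/- arrays (orange), with 1 point per array, a bar at each group's mean and a dotted line at the median of all probe sets (20.1). The orange points lie below the grey ones for Cbl, Cblb, Rnf128, Ndfip1, Peli1, Rc3h1 and Dgkz, above them for Itch and Nedd4, and overlap with them for Dgka. Rc3h1 and Itch did not pass the test although their points lie apart.

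The stretches of 250 bases upstream of the annotated transcription starts are shown for *Rnf128*, *Cbl*, *Cblb* and *Dgkz*, 4 of the 5 genes that fell by 0.39 or more on the log2 scale. They are RefSeq sequences of GRCm38.p6, printed 5′ to 3′ along the gene's strand, and *Dgkz* has a pair of starts. Capitals mark a match to the EGR motif, the only one of 4 motifs searched that was found in them.
Rnf128, chrX:139610370-139610619, plus strand: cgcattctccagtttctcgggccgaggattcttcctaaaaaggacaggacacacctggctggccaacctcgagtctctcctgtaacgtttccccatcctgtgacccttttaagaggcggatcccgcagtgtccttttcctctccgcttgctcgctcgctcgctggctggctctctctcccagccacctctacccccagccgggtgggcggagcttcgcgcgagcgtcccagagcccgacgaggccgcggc
Cbl, chr9:44234047-44234296, minus strand: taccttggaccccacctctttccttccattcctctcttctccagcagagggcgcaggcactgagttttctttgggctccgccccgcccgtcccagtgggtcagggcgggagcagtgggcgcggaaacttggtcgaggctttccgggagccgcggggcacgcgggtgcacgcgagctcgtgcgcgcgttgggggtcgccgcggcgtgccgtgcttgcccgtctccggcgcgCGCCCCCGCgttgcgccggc
Cblb, chr16:52031299-52031548, plus strand: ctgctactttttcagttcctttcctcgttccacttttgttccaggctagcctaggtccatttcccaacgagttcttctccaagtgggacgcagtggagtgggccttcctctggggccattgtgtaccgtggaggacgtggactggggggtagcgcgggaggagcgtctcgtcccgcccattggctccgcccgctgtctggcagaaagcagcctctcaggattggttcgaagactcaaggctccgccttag
Dgkz, distal start, chr2:91963564-91963813, minus strand: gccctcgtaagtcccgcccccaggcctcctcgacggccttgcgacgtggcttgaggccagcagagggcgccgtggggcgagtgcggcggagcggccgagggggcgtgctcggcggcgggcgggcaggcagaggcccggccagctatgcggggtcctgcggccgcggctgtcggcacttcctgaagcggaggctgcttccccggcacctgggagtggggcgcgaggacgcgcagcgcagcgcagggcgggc
Dgkz, proximal start, chr2:91950349-91950598, minus strand: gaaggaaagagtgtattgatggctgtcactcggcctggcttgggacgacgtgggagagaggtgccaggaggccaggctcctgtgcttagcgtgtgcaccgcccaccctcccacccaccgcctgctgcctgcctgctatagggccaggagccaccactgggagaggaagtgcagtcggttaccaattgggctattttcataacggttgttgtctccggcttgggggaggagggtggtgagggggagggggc

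The motifs were those of factors with known roles in T cell activation and anergy, searched on both strands: EGR as GCGNGGGCG, FOXO as TGTTTAC, NFAT as TGGAAA and AP-1 as TGANTCA. None of these motifs lies within another. Of 32851 windows of the same length, 4.70% held the EGR motif, 3.17% the FOXO motif, 18.6% the NFAT motif and 6.75% the AP-1 motif. In *Cbl* the EGR match began 20 bases before the start. Among the other genes with a window, *Nedd4* held an EGR match at one start and NFAT and AP-1 matches at the other, *Rc3h1* held an AP-1 match, and *Dgka* held an NFAT match at 3 of its starts, while *Peli1* held none. A match describes these letters only. *Itch* and *Ndfip1* are named without a sequence.

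The Cbl proteins are RING ligases that act directly at the activated receptor. c-Cbl, the product of *Cbl*, drives receptor chains and tyrosine kinases to lysosomal sorting. In its brightest probe set *Cbl* was at 429 and 404 in the *Rictor*-/- arrays and at 555 and 545 in the WT arrays. Both *Rictor*-/- arrays were lower than both WT arrays, with means of 417 ± 17.5 against 550.3 ± 7.27 (SD, n = 2 each). The log2 fold change was -0.39 (standard error 0.05, 95% interval -0.51 to -0.27, adjusted p = 0.000243 from limma). A second probe set gave the same direction, at 245 and 307 against 359 and 368. There the *Rictor*-/- arrays differed more from each other, and the log2 fold change was -0.39 (adjusted p = 0.0225 from limma over all probe sets). The third probe set of *Cbl* lay at the median of the array, at 23.2 and 20.9 against 19.2 and 20.4, and did not pass. With the mean of the log2 values of its probe sets, the log2 fold change of *Cbl* was -0.23 (adjusted p = 0.0172 from limma).

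Cbl-b, the product of *Cblb*, sets the need for CD28 co-stimulation, and T cells without it resist anergy. *Cblb* was at 426 and 427 in the *Rictor*-/- arrays and at 612 and 568 in the WT arrays. The means were 426 ± 0.815 and 589.9 ± 31.2 (SD, n = 2 each). This gave a log2 fold change of -0.45 (standard error 0.05, 95% interval -0.57 to -0.33, adjusted p = 9.09e-05 from limma). The size of this difference depended on the probe set. In the second probe set, at 476 and 465 against 539 and 540.1, the log2 fold change was -0.19 (adjusted p = 0.0485 from limma over all probe sets), and in the third, at 212 and 202 against 223 and 221, it was -0.09 and did not pass (adjusted p = 0.457 from limma over all probe sets). All 3 probe sets pointed the same way. Averaged over its probe sets on the log2 scale, *Cblb* was at -0.25 (adjusted p = 0.0104 from limma).

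*Rnf128* encodes GRAIL, a transmembrane RING ligase of endosomes that was named as the gene related to anergy in lymphocytes. It was at 69.1 and 79.8 in the *Rictor*-/- arrays and at 111 and 106 in the WT arrays. The means were 74.4 ± 7.56 and 109 ± 3.68 (SD, n = 2 each). The log2 fold change was -0.47 (standard error 0.08, 95% interval -0.65 to -0.28, adjusted p = 0.00159 from limma). Its other probe set was read almost alike. It was at 65.0 and 67.0 against 95.3 and 109, a log2 fold change of -0.52 (adjusted p = 0.00297 from limma over all probe sets). Without WT replicate 1, the call on *Rnf128* ended (log2 fold change -0.44, adjusted p = 0.0661 from limma), where the remaining WT array is assumed to vary like the other group.

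Among the HECT ligases and their adaptor, *Ndfip1* was lower, *Itch* did not pass, and *Nedd4* was higher in its brightest probe set alone. Differences between these genes were not tested. Ndfip1 is a membrane protein whose PY motifs bind the WW domains of Itch and Nedd4, and it is needed to activate Itch in T cells. *Ndfip1* was at 1343 and 1488 in the *Rictor*-/- arrays and at 1904 and 1941 in the WT arrays. Both *Rictor*-/- arrays were lower, with means of 1415 ± 103 against 1922 ± 25.9 (SD, n = 2 each). On the log2 scale the change was -0.44 (standard error 0.05, 95% interval -0.55 to -0.33, adjusted p = 7.25e-05 from limma). A second probe set was at 1111 and 1088 against 1481 and 1419 (log2 fold change -0.39, adjusted p = 0.000563 from limma over all probe sets). In the last probe set *Rictor*-/- replicate 1 stood apart, at 919.7 against 1310.4 in replicate 2, with 1479 and 1442 in the WT arrays. That probe set had a log2 fold change of -0.41 and missed the threshold (adjusted p = 0.0635 from limma over all probe sets).

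*Itch*, the ligase that targets JunB and whose loss in mice causes inflammatory disease of the skin and lung, was at 347 and 347 in the *Rictor*-/- arrays and at 312 and 324 in the WT arrays. The *Rictor*-/- arrays lay above the WT arrays, but the difference did not pass the test. The log2 fold change was 0.12 (standard error 0.06, 95% interval -0.0034 to 0.24, adjusted p = 0.181 from limma). The dimmer probe sets of *Itch* pointed the other way. The brightest of these 3 was at 80.6 and 89.8 against 143 and 95.5, where the WT arrays themselves were far apart. Another was at 31.4 and 32.3 against 37.3 and 42.7, and the last lay below the median of the array on all 4 arrays. Their log2 fold changes were -0.40, -0.22 and -0.10, and none of the 4 probe sets of *Itch* passed over all probe sets (adjusted p = 0.11 to 0.332 from limma). The direction for *Itch* was therefore not settled by these arrays, and the mean of all its probe sets was at -0.15 (adjusted p = 0.117 from limma).

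*Nedd4* encodes the founding member of the Itch family, which in T cells is known to target Cbl-b and so to favor activation, unlike most of the other genes here. Its signal was close to the median of all probe sets. In the brightest probe set it was at 36.4 and 49.3 in the *Rictor*-/- arrays and at 28.7 and 22.2 in the WT arrays. The means were 42.9 ± 9.14 and 25.5 ± 4.56 (SD, n = 2 each), and the replicates differed within both groups. That is a log2 fold change of 0.50 (standard error 0.11, 95% interval 0.26 to 0.74, adjusted p = 0.0062 from limma). The other 2 probe sets did not pass. They were at 32.04 and 34.0 against 30.5 and 26.6 (log2 fold change 0.14, adjusted p = 0.389 from limma over all probe sets) and at 24.4 and 30.5 against 29.0 and 22.7 (0.05, adjusted p = 0.824). The call on *Nedd4* ended when its probe sets were averaged (0.23, adjusted p = 0.129 from limma) and without *Rictor*-/- replicate 2, WT replicate 1 or WT replicate 2 (adjusted p = 0.0602, 0.0572 and 0.17 from limma).

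*Peli1* encodes Pellino-1, a RING ligase that in T cells targets the NF-κB subunit c-Rel. It was at 1182 and 1266 in the *Rictor*-/- arrays and at 1399 and 1351 in the WT arrays. The difference was small. The means were 1224 ± 58.7 and 1375 ± 34.2 (SD, n = 2 each), and the log2 fold change was -0.17 (standard error 0.05, 95% interval -0.27 to -0.06, adjusted p = 0.0287 from limma). All 5 probe sets of *Peli1* pointed to a lower level, with log2 fold changes from -0.31 to -0.07. One of them passed over all probe sets, at 587 and 625 against 749.7 and 720.3 (log2 fold change -0.27, adjusted p = 0.0112 from limma). The brightest did not pass there (adjusted p = 0.063 from limma). The call on *Peli1* held in 6 of 12 alternatives, and it ended when *Rictor*-/- replicate 1 or either WT array was left out (adjusted p = 0.173, 0.24 and 0.14 from limma).

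Roquin-1, the product of *Rc3h1*, has a RING domain but is known for binding stem loops in the mRNAs of *Icos*, *Tnfrsf4* and other co-stimulatory genes and bringing them to decay. A mutant form of it causes TFH cells to accumulate in mice. *Rc3h1* had 1 probe set, at 326 and 302 in the *Rictor*-/- arrays and at 332 and 336 in the WT arrays. The values nearly met, and the log2 fold change was -0.09 (standard error 0.06, 95% interval -0.22 to 0.04, adjusted p = 0.374 from limma). A fall of more than 0.22 on this scale lies outside that interval. Among mRNAs known as Roquin targets, *Icos*, *Nfkbid* and *Rel* did not pass (log2 fold changes 0.0033, 0.0039 and 0.0019), *Tnfrsf4*, the gene of OX40, was higher at 0.18, and *Nfkbiz*, the gene of an atypical IκB protein, was lower at -0.24 (adjusted p = 0.0195 and 0.0017 from limma).

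Diacylglycerol kinases ζ and α are the main isoforms of T cells, and both limit Ras signaling after receptor engagement. *Dgkz* had the smallest p of the 10 genes. It was at 2787 and 2688 in the *Rictor*-/- arrays and at 3737 and 3861 in the WT arrays. The groups were far apart relative to their spread, with means of 2737 ± 70.6 and 3799 ± 87.7 (SD, n = 2 each). The log2 fold change was -0.47 (standard error 0.04, 95% interval -0.56 to -0.38, adjusted p = 9.12e-06 from limma). Its second probe set fell in the same way, from 578 and 562 in the WT arrays to 431 and 409.8 (log2 fold change -0.43, adjusted p = 0.0011 from limma over all probe sets). *Dgka*, the other kinase, did not pass. It was at 2573 and 2717 in the *Rictor*-/- arrays and at 2622 and 2645 in the WT arrays, so that the groups overlapped. The log2 fold change of *Dgka* was 0.01 (standard error 0.04, 95% interval -0.09 to 0.10, adjusted p = 0.954 from limma), and this interval and that of *Dgkz* do not meet. The difference between the isoforms was not itself tested.

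In the fit of all probe sets, 11 of the 27 probe sets of these genes were lower and 1 was higher in *Rictor*-/- TFH cells, against 4.63% lower and 6.38% higher among all probe sets of the array. Of the 27, 25 lay above the array medians on every array. The shares over all probe sets include the dim ones, and no share was computed for bright probe sets alone. By gene, the shares were larger among those above the median than over all genes. Every probe set of *Rnf128*, *Ndfip1* and *Dgkz* pointed down, as did all those of *Cblb* and *Peli1*, whereas *Cbl* and *Itch* had probe sets on both sides of 0. Probe sets of a gene share its RNA and are not replicates of the comparison.

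**Figure D2:**
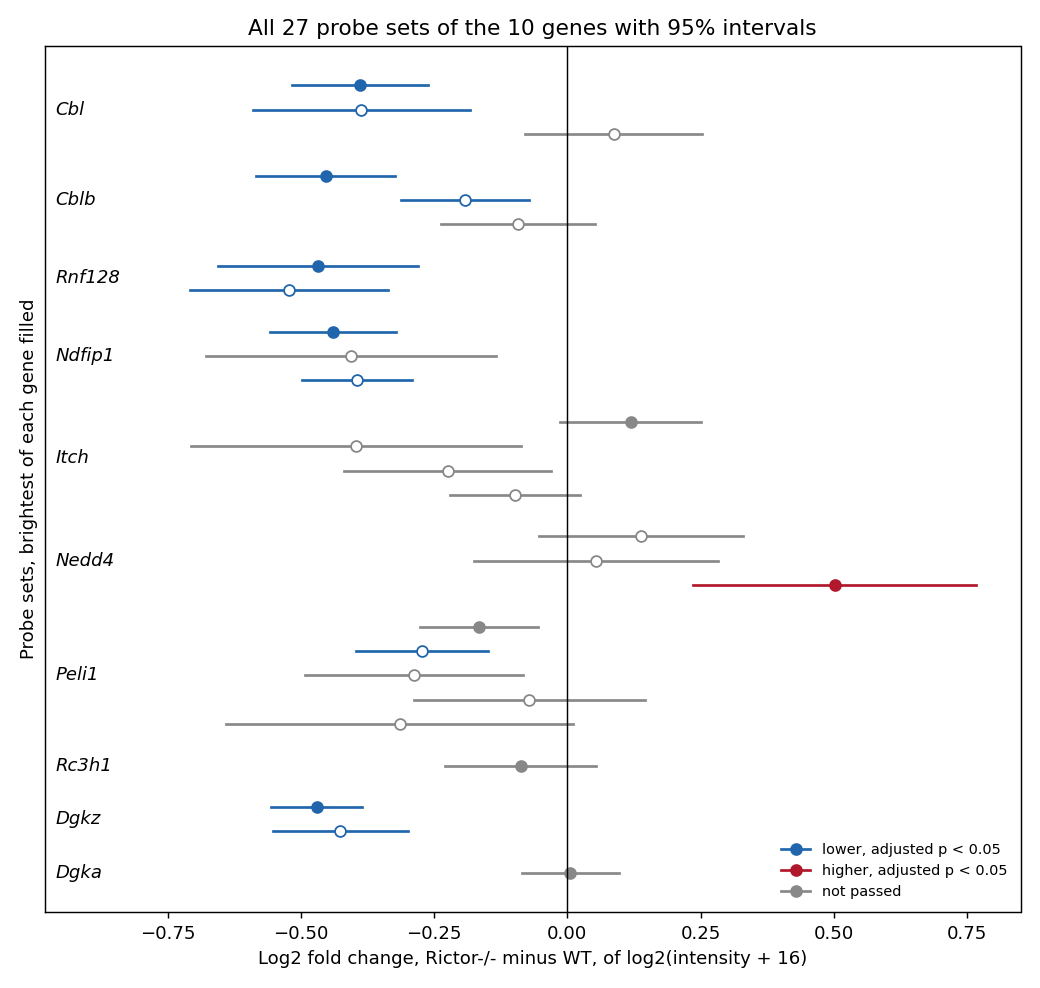
Log2 fold change (x axis, Rictor-/- minus WT, log2 of intensity + 16) of all 27 probe sets with its 95% interval, ordered by gene and within a gene by brightness in WT, with the probe set that stands for the gene filled. Blue and red mark an adjusted p under 0.05 over all probe sets, lower and higher, and grey marks the rest. The probe sets of Rnf128, Ndfip1 and Dgkz lie close together between -0.52 and -0.39, while those of Itch and Nedd4 spread and those of Cblb run from -0.45 to -0.09.

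Genes that work with these proteins were read from 5 lists, written with earlier results of these data known. Together they hold 79 measured genes, of which 26 were lower, 5 were higher and 48 did not pass, with a median log2 fold change of -0.14. These are shares of 32.9% lower and 6.33% higher, beside 7.19% and 12.5% of all genes and 11.3% and 20.1% of the genes above the median. Among 24 further ligases and adaptors, 2 were lower and 1 was higher (median -0.09), and the 8.33% lower is close to the share over all genes. *Dtx1*, which encodes Deltex-1, a ligase induced in anergic T cells, was at 555 and 577 in the *Rictor*-/- arrays against 942 and 879.7 in WT, giving a log2 fold change of -0.67 (adjusted p = 4.44e-06 from limma). *Dtx3l* followed at -0.22, and *Sla2*, the gene of an adaptor that links receptor chains to c-Cbl, was higher at 0.20 (adjusted p = 0.0488 from limma). *Rc3h2* and *Ndfip2*, the closest relatives of *Rc3h1* and *Ndfip1*, were at -0.0056 and 0.11 and did not pass. Of 10 deubiquitinases 2 were lower and none was higher (median -0.11). *Tnfaip3*, which encodes the NF-κB inhibitor A20, was at 1208 and 1285 against 1711 and 1726, a log2 fold change of -0.46 (adjusted p = 2.69e-05 from limma), and *Usp18*, the gene of the enzyme that removes ISG15, was at -0.30.

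On the diacylglycerol side, 5 of 13 genes were lower and 1 was higher (median -0.14). *Plcg1*, whose product makes diacylglycerol, was at 589 and 559 in the *Rictor*-/- arrays against 732 and 748 in WT, giving a log2 fold change of -0.36 (adjusted p = 0.000283 from limma). *Prkca*, the gene of a protein kinase C that diacylglycerol activates, was at -0.33, and *Dgkd*, another kinase isoform, at -0.31. The higher gene was *Rasgrp2*, an exchange factor gene, at 0.20. *Rasgrp1*, the gene of the exchange factor that diacylglycerol recruits, was at -0.09 and did not pass.

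Of 17 genes of substrates and mRNA targets, 8 were lower and 2 higher (median -0.09). *Il2*, whose loss of induction is the classical sign of anergy, was higher in *Rictor*-/- TFH cells. It was at 136 and 133 in *Rictor*-/- and at 64.8 and 71.2 in WT TFH cells, which is a rise of 0.84 on the log2 scale (adjusted p = 1.48e-05 from limma). Both *Rictor*-/- arrays lay well above both WT arrays. The AP-1 genes *Junb* and *Jun*, whose proteins Itch targets, were lower at -0.48 and -0.33 (adjusted p = 6.3e-05 and 0.000842 from limma). *Rapgef1*, which encodes a guanine nucleotide exchange factor, was at -0.39.

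The list of genes associated with anergy had the lowest median of the 5, at -0.32, with 9 of 15 lower and 1 higher. *Izumo1r*, which encodes folate receptor 4, was at 312 and 297 in the *Rictor*-/- arrays against 522 and 469.6 in the WT arrays (log2 fold change -0.67, adjusted p = 1.53e-05 from limma). *Nt5e*, the gene of the ectonucleotidase CD73, was at 354 and 359.5 against 516 and 539 (log2 fold change -0.54, adjusted p = 2.34e-05 from limma). Both surface proteins mark anergic CD4+ T cells and are also found on TFH cells. *Pdcd1*, the PD-1 gene, was at -0.55, and the study chose it for RT-qPCR on cells of this kind, so that it is not independent evidence. *Egr2* and *Egr3*, genes of EGR factors with known roles in anergy, are named here after their values were seen. Whether these factors bear on the genes described here was not tested. *Egr2* was at 179.9 and 177 against 272 and 265 (log2 fold change -0.55, adjusted p = 5.04e-05 from limma), and *Egr3* at 239 and 227 against 299 and 292 (-0.32, adjusted p = 0.00203 from limma). The higher gene was *Lag3*, an inhibitory receptor gene, at 0.32 (adjusted p = 0.0158 from limma). Without either WT array, 15 of the 79 genes were lower and 1 higher.

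**Figure D3:**
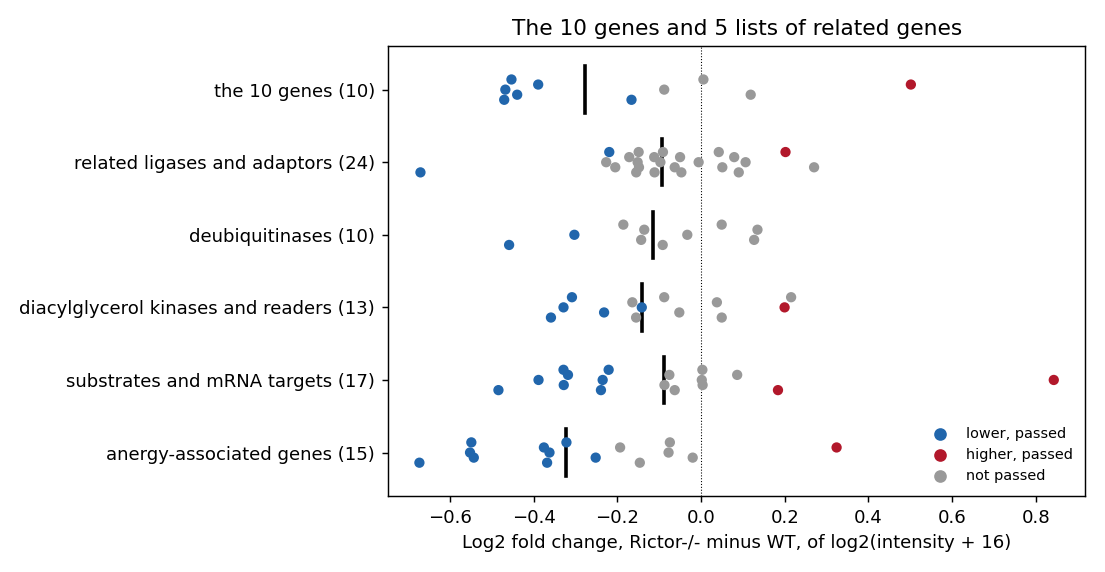
Log2 fold change (x axis, Rictor-/- minus WT, log2 of intensity + 16) of the 10 genes and of the measured members of 5 lists of related genes, with 1 row per list, the number of genes in brackets and a black bar at the median. Blue and red points passed the test as lower and higher, and grey points did not. The medians run from -0.32 for the anergy-associated genes to -0.09, and the red point far to the right is Il2 at 0.84.

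Markers of the sorted cells and of other cells that the sort could hold changed to a different degree in each list. Beside 7.19% lower and 12.5% higher over all genes, the T cell and TFH list had 72.7% lower and the myeloid list 45.5% higher. The B and plasma cell list had 27.3% higher and 9.09% lower, and the CD8 and NK list 14.3% and 28.6%. That 14.3% is near the share over all genes. Of the genes above the median, 11.3% were lower and 20.1% higher. The regulatory T list went both ways. T cell and TFH markers were lower in 8 of 11 and higher in none, with summed intensities of 21461 to 21966 in the *Rictor*-/- arrays against 23942 to 24315 in the WT arrays. The lower ones ran from *Cd4* at -0.26 over *Cd28* at -0.29, *Cd3e* at -0.32, *Cd5* at -0.47, *Pdcd1* at -0.55, *Cxcr5* at -0.70 and *Il21* at -0.90 to *Bcl6*, the factor that defines TFH cells, at -0.94 on the log2 scale. *Cd3d*, *Cd3g* and *Icos* did not pass. The myeloid list had 5 higher and 0 lower genes of 11, with sums of 622 to 689 against 382 to 416. *Fcgr3*, an Fc receptor gene, was at 108 and 81.4 against 30.4 and 29.5 (3.17-fold), and *Itgax*, the CD11c gene, at 145 and 142 against 54.4 and 45.6 (2.88-fold). *Itgam* was 2.19-fold and *Lyz2* 1.90-fold higher, and *S100a8* was 1.41-fold higher. *Cd14* and *Mpo* were under the median of all probe sets (20.1) on every array, and *Adgre1* was close to it.

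For B and plasma cells it was 3 higher and 1 lower of 11. *Jchain*, which encodes the joining chain of secreted antibodies, was at 378 and 353 against 126 and 113 (3.06-fold, log2 fold change 1.49, adjusted p = 5.87e-08 from limma). *Cd79b* was 1.57-fold higher and *Pax5* 1.38-fold, the latter under the median, and *Xbp1* was lower at -0.19 on the log2 scale. *Ms4a1* and *Cd79a* were under that median on every array. The sums of this list, 4068 to 4243 against 3919 to 4024, were carried by *Ighm*, which did not pass. Of 7 CD8 and NK genes 1, *Cd8b1*, was higher (1.52-fold) and 2 were lower, with sums of 386 to 439 against 356 to 383. *Cd8a* did not pass (log2 fold change 0.0035). The 2 lower genes, *Klra1* and *Klrc2*, were under the median on every array, as was *Ncr1*. Of 5 genes of regulatory T cells 2, *Il2ra* and *Tnfrsf18*, were higher and 1, *Ikzf2*, was lower. Their sums were 2135 to 2141 against 2226 to 2234, and *Foxp3* was under the median. The folate receptor 4 gene stood in this list under the older symbol *Folr4*, which was not found, so these counts and sums leave it out. Under its symbol *Izumo1r* it was lower, at -0.67 on the log2 scale as given above. The part of these differences in the changes of the 10 genes was not tested.

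The calls were recomputed with limma under 12 alternatives of scaling, probe set choice, model and left-out arrays. *Cbl*, *Cblb*, *Ndfip1* and *Dgkz* passed as lower in all 12, and *Rnf128* in 11. Across them the log2 fold change of *Dgkz* ran from -0.50 to -0.44 and that of *Ndfip1* from -0.51 to -0.37. *Peli1* passed in 6 and *Nedd4* in 8, while *Rc3h1*, *Itch* and *Dgka* passed in none.

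**Figure D4:**
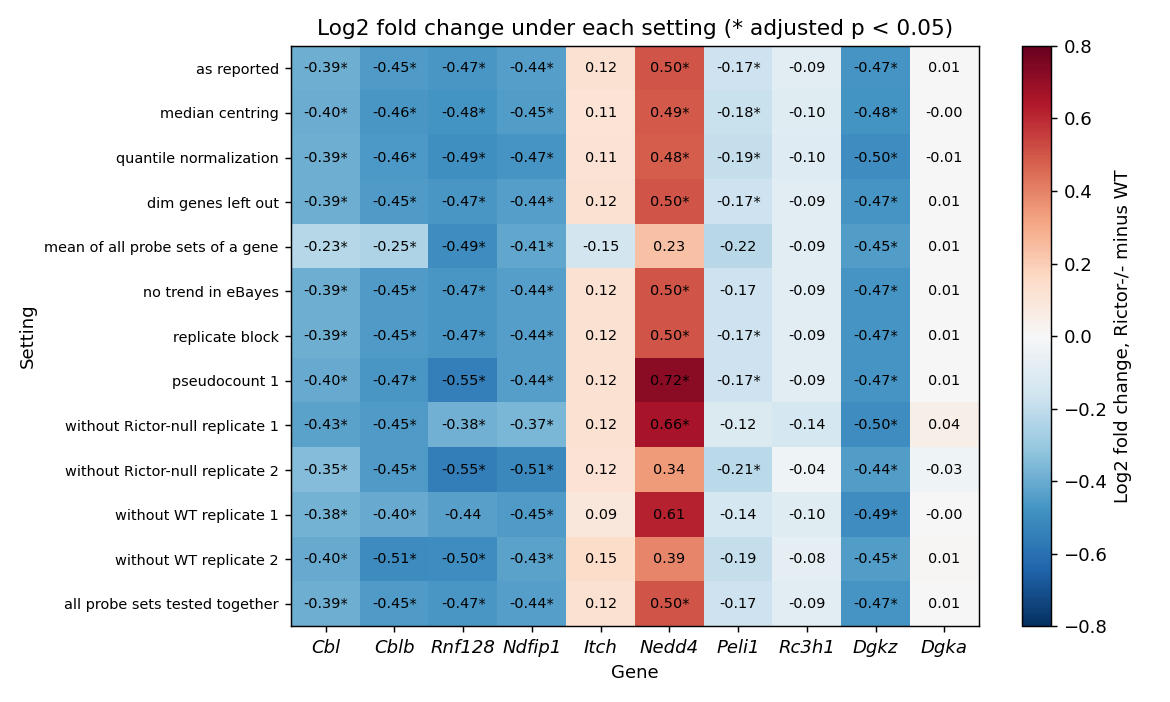
Log2 fold change (colour scale and printed value, Rictor-/- minus WT) of each of the 10 genes (x axis) as reported and under 12 alternative settings (y axis), with an asterisk where the adjusted p from limma was under 0.05. Cbl, Cblb, Ndfip1 and Dgkz carry an asterisk in every row, whereas Itch turns from 0.12 to -0.15 with the mean of all its probe sets.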

How the data were processed

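The 4 deposited columns hold linear probe set intensities from biotinylated cRNA of total RNA. MAS5 and RMA both stand in the submitters' processing notes, with no version, and which of them made the values is unknown. Medians were nearly equal, as after scaling between arrays, which hides any change in total RNA per cell. Symbols came from the platform annotation: 34945 probe sets carried 1 symbol, 932 several and 9160 none, and only the first kind named a gene. All 10 symbols matched a RefSeq table of GRCm38.p6 by Entrez number.

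The values were taken to log2(intensity + 16). Each of 18193 genes was read by its brightest probe set over the 4 arrays, and the whole table was fitted in limma 3.58.1 (R 4.3.3), with eBayes moderation that follows the mean signal, two-sided, with Benjamini-Hochberg adjustment and a threshold of 0.05. The same fit over all probe sets gave the values of the other probe sets. The steps were tested on simulated data. The unpaired one-tailed test that the methods name has few degrees of freedom with 2 arrays per group, so it was run as an alternative. It was taken in the direction of each gene's observed difference, which makes its calls before adjustment more lenient. Groups and replicate numbers came from the labels. The p-values rest on the spread between pooled samples only, since the labels call them biological replicates without saying which mice they hold.

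The 10 genes, the lists and the tests were chosen with earlier results of these data known. Genes named from the 5 lists of related genes are up to 3 higher and 3 lower genes with the smallest p among those that passed, leaving out the 10, and genes named beyond this rule (*Rc3h2*, *Ndfip2*, *Rasgrp1*, *Icos*, *Rel*, *Nfkbid*, *Nfkbiz*, *Egr2* and *Egr3*) were chosen after their values were seen. The motifs and the promoter windows were chosen after the arrays had been read.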

Additional observations from a re-analysis of the deposited data

How the results depend on the processing

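When a gene's probe sets were averaged, 0 of the 10 genes were higher and 842 genes of the whole table were lower, against 1 and 1308 as reported, and without the trend 0 of the 27 probe sets were higher against 1. The methods' one-tailed test, taken in the direction of each gene's observed difference, called 2231 genes lower and 10 related genes higher before adjustment. After adjustment it called 3 genes higher and 3 lower of 18193, 0 higher and 0 lower of the 10 genes and 0 and 0 of the related genes, while before it 6 of the 10 were lower and 1, *Itch*, was higher. Leaving out 1 array at a time gave 0 to 1 of the 10 genes higher and 4 to 6 lower, 930 to 2000 genes higher and 457 to 1048 lower in all, 1 to 4 related genes higher and 15 to 26 lower, and 0 to 1 of the 27 probe sets higher and 1 to 12 lower. The low end for the probe sets came without WT replicate 1 (1) and WT replicate 2 (3), and *Rictor*-/- replicate 1 left out gave 7. The cause was not tested, beyond the fewer arrays. With the replicate number as a block, 6 of the 10 genes were lower and 1 higher, and it changed none of these calls. The labels share only a number, since deviations of same-numbered arrays correlated at -0.03. Median centring, quantile normalization, leaving out dim genes and 1 in place of 16 as pseudocount kept 6 lower and 1 higher. Of 140 tested values of the 10 genes under the alternatives, 115 kept sign and side of the threshold, 20 kept the sign and crossed the threshold, and 5 changed sign, 4 of *Dgka* and 1 of *Itch*, neither of which had passed.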
